A study of Mus musculus with 37 samples.

Results

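The Wnt pathway genes described here are the ligands, receptors, secreted inhibitors and co-factors whose symbols are Wnt, Fzd, Sfrp, Dkk, Rspo or Axin with a number, together with Wif1, Porcn, Lef1, Tcf7, Lrp5, Lrp6 and Lgr4 to Lgr6. Of the 19938 mouse genes read by probe sets with exactly 1 symbol, 51 matched: 19 Wnt ligands, the acyltransferase Porcn, 10 Frizzled receptors, 2 co-receptors, 5 secreted Wnt-binding inhibitors, 4 Dickkopf genes, 4 R-spondins, 3 R-spondin receptors, 2 Axins and Lef1. No probe set with 1 symbol named Tcf7. Wnt4 had 2 probe sets, and the one with the higher mean was used.

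RNA came from whole right lungs of A/J and C57BL/6J (B6) mice and was hybridised to Mouse Gene 1.0 ST arrays. Each replicate was a pool of 3 male lungs from 1 litter, with 3 litters per strain and time. A/J lungs were collected on every day from E15.5 to E20.5 and at PN0 (the day of birth), and B6 lungs on every day from E15.5 to E18.5 and at PN0. B6 mice are born about a day earlier than A/J mice, so PN0 was an earlier embryonic age in B6. Both strains are inbred and carried no introduced allele or treatment.

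Wnt proteins are lipid-modified by Porcn, bind a Frizzled receptor with Lrp5 or Lrp6 on a neighbouring cell and, in the canonical branch, protect beta-catenin from the Axin complex, so that it can act with the DNA-binding factors Lef1 and Tcf7. R-spondins acting through Lgr receptors raise the amount of Frizzled at the cell surface, while Sfrp proteins and Wif1 bind Wnts outside the cell and most Dickkopf proteins block Lrp5 and Lrp6. In the developing lung, Wnt2 is a mesenchymal and Wnt7b an epithelial ligand that promote growth, and Wnt5a signals mainly through branches that do not use beta-catenin.

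The deposited values are log2 units, so a difference of 1 is 2-fold. A difference between groups was called at an adjusted p below 0.05 and at least 1.5-fold, and a change over all times of a strain at an adjusted p below 0.01 and at least 2-fold between the highest and the lowest group mean. Errors of differences are standard errors from the limma fit to all 36 replicates. The tissue read as lung: 8 of 10 lung epithelial markers rose from E15.5 to PN0 in each strain, and all 11 proliferation markers measured fell in both. The mean of the proliferation markers went from 10.22 to 10.36 at E15.5 to 7.05 to 7.30 at PN0 in A/J, and from 10.23 to 10.31 to 7.67 to 7.76 in B6. Their part in the changes of the Wnt pathway genes was not tested, and in whole lung fewer cells of a type and less RNA per cell cannot be told apart. Some replicates carried signal of neighbouring organs: the liver list reached 7.64 in A/J E15.5 replicate 1 and 8.81 in B6 E15.5 replicate 1, against a lowest value of 5.41 over all replicates, and the heart list reached 9.54 in that A/J replicate. The esophagus list ran from 5.54 to 7.39 and was highest in A/J PN0 replicate 2.

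Levels of different probe sets cannot be ranked against each other, but 13 of the 51 genes had every group mean below 6.41, the median of all values, among them 6 ligands. Over time 9 genes changed in A/J (17.6% of the 51, with 17.8% of all 21789 probe sets called): Fzd3, Lef1, Porcn, Rspo2, Sfrp1, Sfrp2, Wnt5a, Wnt7a and Wnt7b. In B6 6 changed (11.8%, with 14.4% of all called): Fzd1, Porcn, Rspo2, Sfrp1, Sfrp2 and Wnt5a. Porcn, Rspo2, Sfrp1, Sfrp2 and Wnt5a were called in both strains, where 12.2% of all probe sets were. The family was therefore called about as often as the array at large, and what follows describes which of its genes moved and when. By the adjusted p alone, 29 genes passed in each strain. No share of all probe sets is given beside that count or later counts by a p-value alone. Such counts therefore do not compare the family with the array. In 20 comparisons of group pairs 24 genes were called at least once, also without a share of all probe sets. The other 27, with 13 ligands, Axin1, Axin2, Lrp6, Dkk1, Dkk2, Dkk4, Fzd6, Fzd8, Fzd9, Fzd10, Rspo3, Rspo4, Sfrp4 and Sfrp5 among them, lay between -0.57 and 0.54 from their own E15.5 level at every time.

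**Figure D1:**
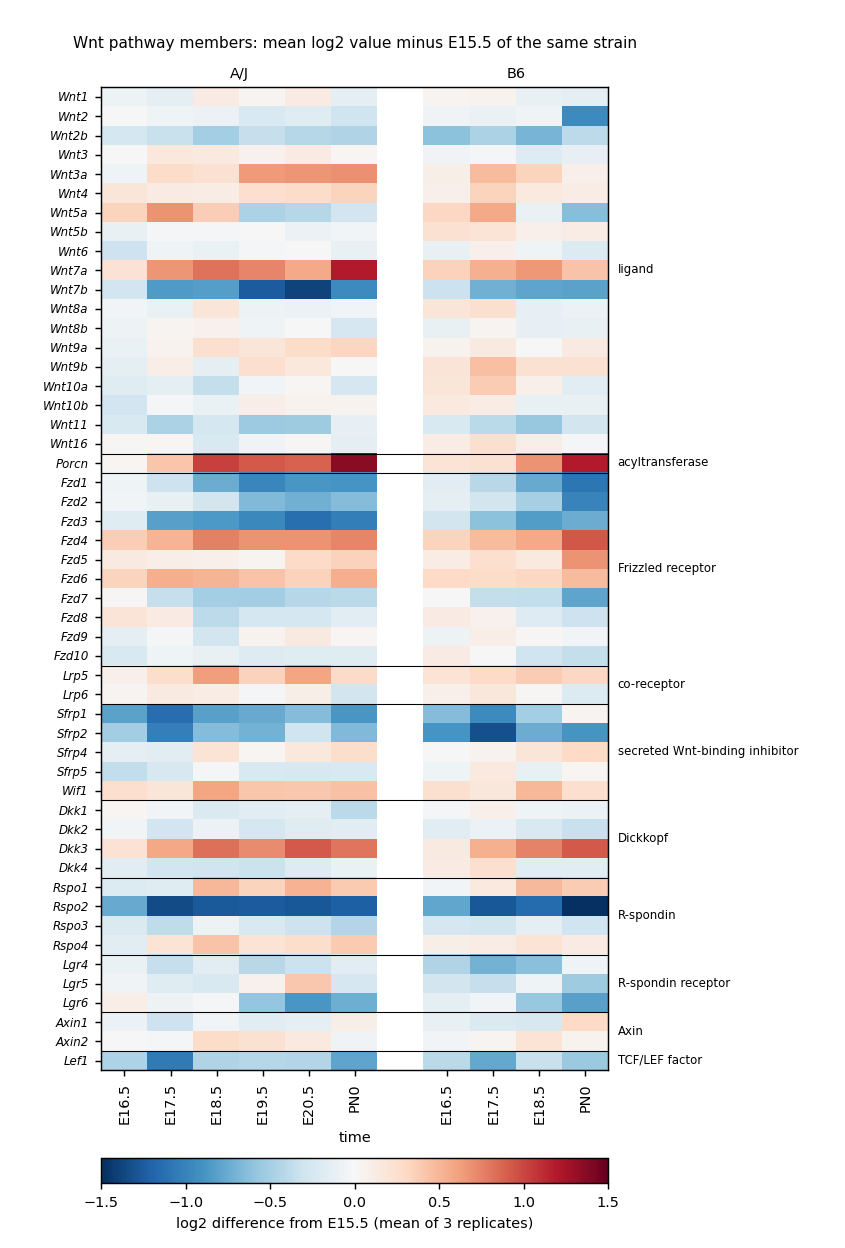
Each row is one of the 51 genes, ordered by role, and each column a time in A/J (left) or B6 (right); colour is the mean log2 value of 3 replicates minus the mean at E15.5 of the same strain. Rspo2 is blue from E16.5 on in both strains, Wnt7b reaches -1.39 at E20.5 in A/J, Porcn reaches 1.35 and 1.19 at PN0, and most ligands stay pale.

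Promoters of Lef1 and Fzd1 are shown because these genes fell, because their windows hold the letters searched for, and because Lef1 itself binds DNA with the letters CTTTGA. Sequences are from RefSeq on GRCm38.p6, cover the 250 bases before a transcript start, read 5′ to 3′ on the gene's strand, and have CTTTGA or its reverse complement TCAAAG in capitals. The Lef1 window is at chr3:131156044-131156293 on the plus strand and the Fzd1 window at chr5:4758217-4758466 on the minus strand.
Lef1: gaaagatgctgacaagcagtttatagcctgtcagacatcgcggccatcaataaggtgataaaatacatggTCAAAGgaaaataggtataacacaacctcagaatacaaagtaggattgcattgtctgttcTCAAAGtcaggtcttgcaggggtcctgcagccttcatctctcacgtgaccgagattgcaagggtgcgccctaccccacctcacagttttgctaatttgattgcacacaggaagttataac
Fzd1: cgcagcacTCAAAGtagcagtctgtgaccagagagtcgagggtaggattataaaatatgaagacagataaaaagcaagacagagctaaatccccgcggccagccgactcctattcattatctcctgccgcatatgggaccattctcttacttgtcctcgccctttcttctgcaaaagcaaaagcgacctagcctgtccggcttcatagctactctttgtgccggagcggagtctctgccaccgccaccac
The Lef1 window holds 2 matches, 180 and 120 bases before the start. It lies inside the gene, at a later start than its other windows, and is the only one of them with a match. The Fzd1 window holds 1, 242 bases before the start. Among 38 promoter windows of the 32 genes with an entry, 5 held CTTTGA on either strand (13.2%), against 16% of 32851 windows of all genes. The longer CTTTGAT, which contains it, was in 2 of 38 (5.26%, Wnt11 and Wnt5b) and in 3.73% of all windows. Neither share sets the family apart, and a match is a run of letters rather than a known site.

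The earliest calls were falls, mainly in secreted modulators. At E16.5 Rspo2 and Sfrp1 were already lower than at E15.5 in A/J, 2 of 51 genes (3.92%) where 0.202% of all probe sets were called lower. In B6 Rspo2, Sfrp1, Sfrp2 and the ligand Wnt2b were lower, 4 of 51 (7.84%) where 0.808% of all were. No gene of the family was called higher at E16.5 in either strain. Of all probe sets, 1.56% were called higher in A/J and 2.18% in B6. By limma's adjusted p alone, 2 genes were higher and 4 lower in A/J, and 2 higher and 8 lower in B6. At an unadjusted p below 0.05, in either direction, 16 genes passed in A/J and 18 in B6. Without B6 E15.5 replicate 1, the replicate with the highest liver list, the B6 count of called genes was 2. Without the 5 replicates in which liver or heart markers stood high, the counts of called genes were 2 in A/J and 3 in B6.

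Rspo2, an R-spondin made by lung mesenchyme, had the most negative PN0 minus E15.5 difference of the family in each strain. In A/J its values were 7.62, 7.63 and 7.05 at E15.5, 6.63, 6.56 and 6.84 at E16.5, 6.04, 6.08 and 6.17 at E17.5, 5.83, 6.4 and 6.28 at E18.5, 6.02, 6.47 and 6.05 at E19.5, 6.07, 6.44 and 5.97 at E20.5, and 6.36, 6.10 and 6.16 at PN0. In B6 they were 7.82, 7.39 and 7.50 at E15.5, 6.86, 6.64 and 6.88 at E16.5, 6.33, 6.10 and 6.45 at E17.5, 6.43, 6.19 and 6.62 at E18.5, and 6.05, 5.88 and 6.30 at PN0. Every replicate from E16.5 on lay below every E15.5 replicate of its strain, and most of the fall was complete by E17.5. The difference of PN0 from E15.5 was -1.23 ± 0.16 in A/J (adjusted p = 1.23e-07) and -1.49 ± 0.16 in B6 (adjusted p = 2.6e-09). Of the other R-spondins, Rspo1 moved the other way in A/J, by 0.70 ± 0.12 from E17.5 to E20.5 (adjusted p = 1.08e-05), and Rspo3 and Rspo4 were called in no comparison.

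Sfrp1 and Sfrp2, which bind Wnts outside the cell, fell from E15.5 to E17.5 in both strains, where their group means were lowest. Over the same days the mean of the smooth muscle list went from 9.11 to 9.37 to 8.65 to 8.93 in A/J and from 8.98 to 9.16 to 8.36 to 8.68 in B6, and 3 of its 7 genes were called lower in each strain. At PN0 that list stood at 9.21 to 9.50 in A/J and 8.77 to 9.0 in B6, and its part in the courses of Sfrp1 and Sfrp2 was not tested. Sfrp1 in A/J read 7.96, 7.53 and 7.17 at E15.5, 6.75, 6.71 and 6.80 at E16.5, 6.34, 6.44 and 6.45 at E17.5, 6.77, 6.64 and 6.81 at E18.5, 6.57, 7.03 and 6.78 at E19.5, 6.81, 6.83 and 7.06 at E20.5, and 6.52, 6.95 and 6.57 at PN0. In B6 it read 7.90, 7.71 and 7.37 at E15.5, 7.13, 6.97 and 6.93 at E16.5, 6.62, 6.76 and 6.72 at E17.5, 7.07, 7.26 and 7.11 at E18.5, and 7.73, 7.73 and 7.64 at PN0. Thus B6 at PN0 was back within the range of its E15.5 replicates, while A/J at PN0 stayed below all of its own. E17.5 minus E15.5 was -1.14 ± 0.14 in A/J (adjusted p = 5.89e-08) and -0.96 ± 0.14 in B6 (adjusted p = 1.53e-06). PN0 minus E15.5 was -0.87 ± 0.14 in A/J (adjusted p = 3.09e-06) and 0.04 ± 0.14 in B6 (adjusted p = 0.847).

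Sfrp2 in A/J read 9.98, 9.76 and 9.47 at E15.5, 8.96, 9.28 and 9.41 at E16.5, 8.75, 8.71 and 8.67 at E17.5, 9.21, 9.05 and 9.0 at E18.5, 8.81, 9.30 and 8.97 at E19.5, 9.38, 9.45 and 9.49 at E20.5, and 8.98, 9.21 and 9.05 at PN0. In B6 it read 9.75, 9.77 and 9.19 at E15.5, 8.83, 8.49 and 8.75 at E16.5, 8.07, 8.36 and 8.32 at E17.5, 8.73, 8.71 and 9.04 at E18.5, and 8.62, 8.77 and 8.68 at PN0. The E17.5 replicates were the lowest of each strain, and did not overlap E15.5. E17.5 minus E15.5 was -1.03 ± 0.14 in A/J (adjusted p = 5.65e-07) and -1.32 ± 0.14 in B6 (adjusted p = 7.97e-09), and in A/J the level rose by 0.73 ± 0.14 from E17.5 to E20.5 (adjusted p = 0.00012). The A/J fall from E15.5 to PN0, -0.66 ± 0.14, was -0.54 and below the 1.5-fold limit without A/J E15.5 replicate 1, which held liver and heart signal. Of the other secreted Wnt-binding inhibitors, Wif1 was called once, 0.59 ± 0.11 higher at E18.5 than at E15.5 in A/J, and Sfrp4 and Sfrp5 were called in no comparison.

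Lef1, the nuclear factor of the canonical branch, had the same trough. Its A/J replicates ran from 7.96 to 8.18 at E15.5, from 6.86 to 7.27 at E17.5, from 7.59 to 7.70 at E20.5 and from 7.29 to 7.33 at PN0. In B6 they ran from 7.73 to 7.91 at E15.5, from 7.02 to 7.10 at E17.5, from 7.29 to 7.68 at E18.5 and from 7.16 to 7.34 at PN0. E17.5 minus E15.5 was -1.06 ± 0.10 in A/J (adjusted p = 2.53e-10) and -0.77 ± 0.10 in B6 (adjusted p = 1.76e-07), with no overlap. A/J then gained 0.62 ± 0.10 by E20.5 (adjusted p = 6.04e-06). B6 gained 0.44 ± 0.10 by E18.5 (adjusted p = 0.00134), which is under 1.5-fold. Because T cells also express Lef1, markers of T cells and thymus were read. Between E15.5 and PN0, 0 of 8 were called in either strain. In limma's test 1 in A/J and 0 in B6 had an adjusted p below 0.05. Their mean stayed between 4.91 and 5.33 over all replicates, and their part in the Lef1 course was not tested.

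From E15.5 to E17.5 the fallers in A/J were Fzd3, Lef1, Rspo2, Sfrp1, Sfrp2 and Wnt7b, 6 of 51 (11.8%) with 7.07% of all probe sets called lower, and Wnt5a and Wnt7a were higher (3.92%, with 7.45% of all higher). In B6 the same interval gave 7 lower genes (13.7%, with 7.04% of all lower), namely these 6 and Lgr4. None was called higher in B6 (5.97% of all), although 10 were higher by limma's adjusted p alone. In either direction 29 of the 51 genes had an unadjusted p below 0.05.

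Among the ligands the clearest course was that of Wnt5a, which rose to E17.5 and then dropped. The study placed Wnt5a on a list chosen by its pattern in these same lungs, so its course here is not independent evidence. In A/J it read 8.14, 8.22 and 7.94 at E15.5, 8.71, 8.28 and 8.30 at E16.5, 8.77, 8.87 and 8.69 at E17.5, 8.53, 8.66 and 8.22 at E18.5, 7.53, 7.68 and 7.66 at E19.5, 7.70, 7.62 and 7.71 at E20.5, and 7.64, 7.91 and 7.88 at PN0. In B6 it read 8.54, 8.59 and 8.44 at E15.5, 8.88, 8.8 and 8.81 at E16.5, 9.17, 8.97 and 9.12 at E17.5, 8.18, 8.73 and 8.37 at E18.5, and 7.82, 7.83 and 8.01 at PN0. In each strain all E17.5 replicates exceeded all E15.5 replicates, and the later drop was steepest between E18.5 and E19.5 in A/J. The rise to E17.5 was 0.68 ± 0.12 in A/J (adjusted p = 2.42e-05) and 0.56 ± 0.12 in B6 (adjusted p = 0.000288), the latter just under 1.5-fold. The fall from E17.5 was -1.10 ± 0.12 to E20.5 in A/J (adjusted p = 9.63e-09) and -0.66 ± 0.12 to E18.5 in B6 (adjusted p = 0.000128).

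Wnt7b and Wnt7a, closely related ligands, went in opposite directions. Wnt7b ran from 8.18 to 8.38 at E15.5, 7.43 to 7.47 at E17.5, 6.77 to 7.0 at E20.5 and 7.24 to 7.44 at PN0 in A/J, and from 7.95 to 8.17 at E15.5, 7.22 to 7.58 at E17.5 and 7.25 to 7.30 at PN0 in B6. PN0 minus E15.5 was -0.95 ± 0.09 in A/J (adjusted p = 2.13e-10) and -0.80 ± 0.09 in B6 (adjusted p = 7.5e-09). The epithelial marker list, which includes surfactant genes, rose over the same days from 8.76 to 9.14 to 11.55 to 11.57 in A/J. In B6 it rose from 8.65 to 8.85 to 11.36 to 11.37, and its part in the Wnt7b course was not tested.

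Wnt7a in A/J read 6.06, 6.30 and 6.49 at E15.5, 6.49, 6.57 and 6.45 at E16.5, 6.67, 6.99 and 7.17 at E17.5, 7.24, 7.25 and 6.81 at E18.5, 7.14, 6.79 and 7.10 at E19.5, 6.85, 6.75 and 6.94 at E20.5, and 7.55, 7.59 and 7.28 at PN0. In B6 it read 6.36, 6.33 and 6.27 at E15.5, 6.83, 6.78 and 6.4 at E16.5, 6.75, 6.85 and 6.95 at E17.5, 7.11, 6.62 and 7.20 at E18.5, and 6.63, 6.89 and 6.73 at PN0. It was thus highest on the day of birth in A/J and at E18.5 in B6. The A/J gain from E15.5 to PN0 was 1.19 ± 0.15 (adjusted p = 2.47e-08), and the B6 gain 0.43 ± 0.15 (adjusted p = 0.0137) was under 1.5-fold.

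Wnt2, described with the strain comparison at PN0, was another ligand called lower at PN0 than at E15.5 in B6. So was Wnt5a, which changed by -0.64 over that interval in B6. Wnt3a, a canonical ligand, gained 0.69 ± 0.14 from E15.5 to PN0 in A/J (adjusted p = 8.63e-05) but 0.07 ± 0.14 in B6 (adjusted p = 0.705), and without A/J E15.5 replicate 1 the A/J gain was 0.57 and under 1.5-fold. Wnt2b differed from E15.5 in B6 by -0.61 ± 0.10 at E16.5 (adjusted p = 6.57e-05) and by -0.70 ± 0.10 at E18.5 (adjusted p = 8.01e-07). Wnt11 missed the 1.5-fold limit, with E17.5 minus E15.5 at -0.47 ± 0.09 in A/J and -0.40 ± 0.09 in B6. Wnt5b ranged over 0.12 between its group means in A/J and 0.22 in B6.

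Porcn, the enzyme that adds the lipid which Wnt proteins need for secretion, had the most positive PN0 minus E15.5 difference of the 51 genes in each strain. In A/J it read 7.16, 6.87 and 6.83 at E15.5, 7.0, 7.02 and 6.94 at E16.5, 7.20, 7.51 and 7.40 at E17.5, 8.09, 7.62 and 8.23 at E18.5, 7.86, 7.89 and 7.87 at E19.5, 7.99, 7.74 and 7.77 at E20.5, and 8.38, 8.22 and 8.31 at PN0. In B6 it read 7.09, 6.85 and 6.71 at E15.5, 7.0, 7.13 and 7.14 at E16.5, 7.02, 7.08 and 7.22 at E17.5, 7.65, 7.25 and 7.77 at E18.5, and 8.18, 8.09 and 7.96 at PN0. All replicates from E18.5 on were above all E15.5 replicates of their strain. PN0 exceeded E15.5 by 1.35 ± 0.13 in A/J, 2.55-fold (adjusted p = 1.33e-10), and by 1.19 ± 0.13 in B6, 2.29-fold (adjusted p = 1.84e-09).

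**Figure D2:**
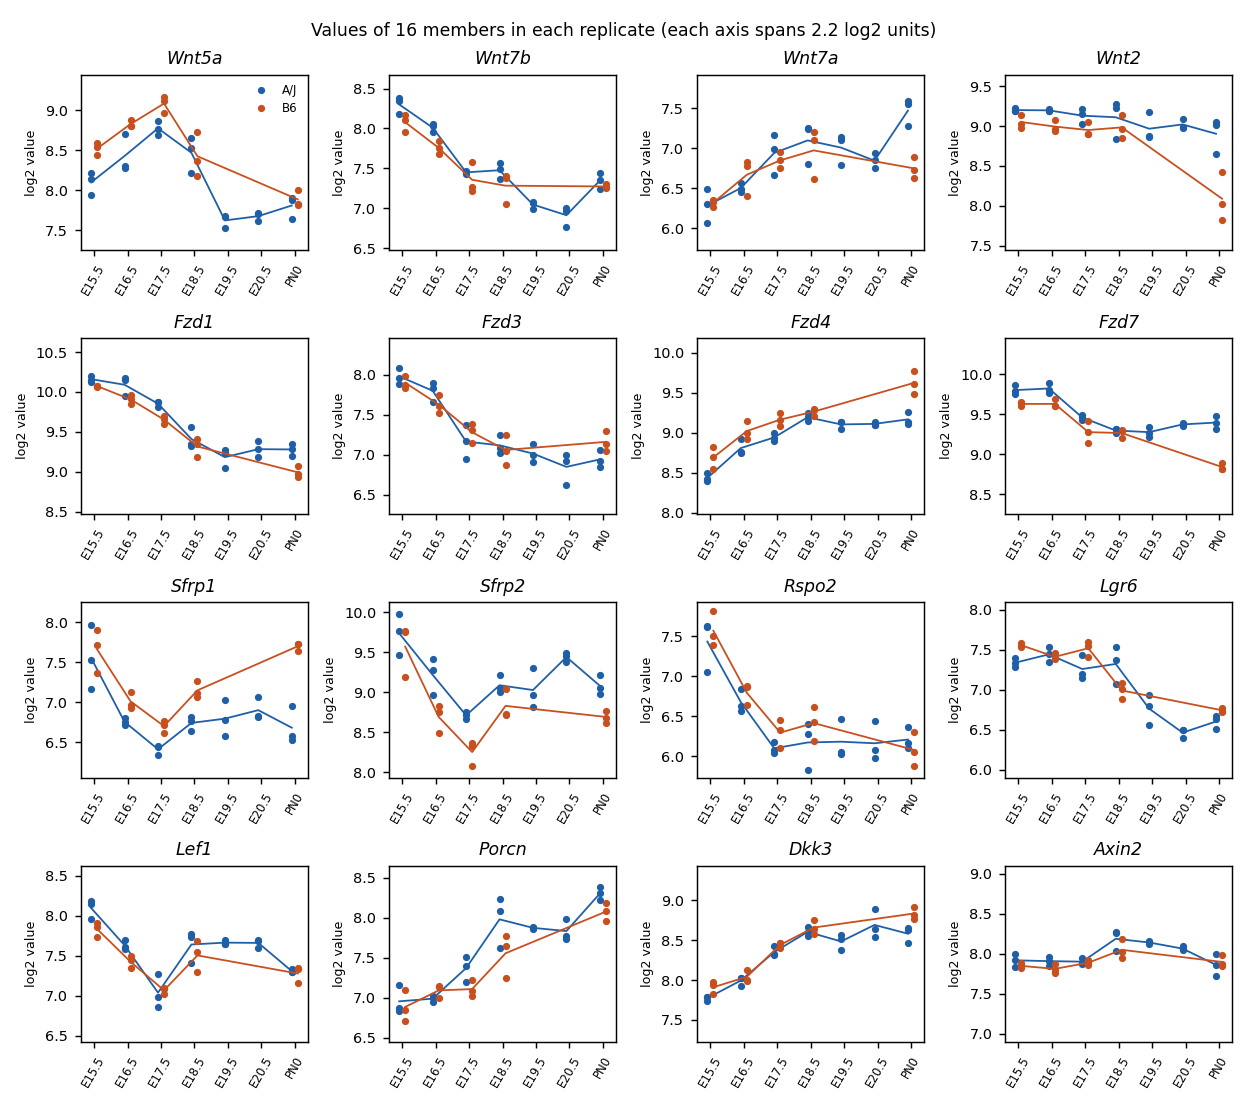
Points are the log2 values of single replicates (litter pools) and lines join the group means for A/J (blue) and B6 (orange) over embryonic days and PN0; every axis spans 2.2 log2 units. Sfrp1, Sfrp2 and Lef1 dip at E17.5 in both strains, and Wnt5a peaks there. Axin2 is highest at E18.5, with group means spanning 0.33 in A/J and 0.24 in B6.

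The Frizzled receptors split by direction. From E15.5 to PN0 Fzd1 changed by -0.88 ± 0.08 in A/J (adjusted p = 1.84e-11) and -1.08 ± 0.08 in B6 (adjusted p = 1.86e-13), from replicates of 10.13 to 10.20 down to 9.20 to 9.35 in A/J and from 10.06 to 10.08 down to 8.94 to 9.07 in B6. Fzd2 changed by -0.65 ± 0.09 and -1.0 ± 0.09, and Fzd3, a receptor known from planar polarity, by -1.04 ± 0.11 and -0.74 ± 0.11. Fzd7 changed by -0.79 ± 0.06 in B6, past 1.5-fold, and by -0.41 ± 0.06 in A/J. Fzd4, which endothelial cells use for Norrin and Wnt signals, gained 0.73 ± 0.08 in A/J (adjusted p = 8.98e-10) and 0.93 ± 0.08 in B6 (adjusted p = 4.78e-12). Its replicates went from 8.39 to 8.49 at E15.5 up to 9.11 to 9.26 at PN0 in A/J, and from 8.55 to 8.82 up to 9.49 to 9.77 in B6, with no overlap. The endothelial marker list, at 9.50 to 9.58 and 9.66 to 9.75 at E15.5, stood at 10.52 to 10.59 and 10.37 to 10.47 at PN0; its part in the Fzd4 rise was not tested. Fzd5 gained 0.68 ± 0.10 in B6 (adjusted p = 7.38e-07) and 0.35 ± 0.10 in A/J, the latter under 1.5-fold. The co-receptor Lrp5 was called in A/J alone, at E18.5 and E20.5 against E15.5, but the strain difference in its course was not past the test over shared times (adjusted p = 0.164).

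Among the remaining modulators, Dkk3, a Dickkopf relative that does not block Lrp6 as Dkk1 does, rose by 0.81 ± 0.08 from E15.5 to PN0 in A/J (adjusted p = 1.76e-10) and by 0.92 ± 0.08 in B6 (adjusted p = 9.37e-12). The R-spondin receptor Lgr6 fell late, by -0.74 ± 0.09 in A/J (adjusted p = 6.14e-08) and -0.81 ± 0.09 in B6 (adjusted p = 8.83e-09). Its replicates at E17.5 were still 7.15 to 7.43 in A/J and 7.41 to 7.60 in B6, and those at PN0 were 6.51 to 6.67 and 6.72 to 6.77. Axin2, a widely used readout of canonical signalling, differed between PN0 and E15.5 by -0.06 ± 0.07 in A/J (adjusted p = 0.567) and 0.05 ± 0.07 in B6 (adjusted p = 0.619). Its highest group mean was at E18.5 in both strains, 8.19 in A/J and 8.05 in B6. These means were 0.27 and 0.20 above E15.5, under 1.5-fold. In A/J the replicates ran from 8.03 to 8.27 at E18.5 and from 7.83 to 8.0 at E15.5. In B6 they ran from 7.94 to 8.19 and from 7.82 to 7.88, so neither strain overlapped. The F test of limma over time gave an adjusted p of 0.000482 in A/J and 0.0551 in B6.

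Counted over the whole interval, PN0 against E15.5 gave 5 genes higher in A/J (9.8%, with 13.7% of all probe sets higher) and 9 lower (17.6%, with 11.8% of all). In B6 it gave 4 higher (7.84%, with 12.7% of all) and 10 lower (19.6%, with 13.4% of all). In either direction the 14 genes of each strain are 27.5% of the family, beside 25.5% of all probe sets in A/J and 26.1% in B6. Dkk3, Fzd4 and Porcn were higher in both strains, and Fzd1, Fzd2, Fzd3, Lgr6, Rspo2, Sfrp2 and Wnt7b lower in both. The other 8 genes were called in 1 strain only by this rule. Across the 51 genes the changes of the strains, measured in different lungs, correlated at r = 0.864, and across all probe sets at r = 0.925; genes are not independent replicates.

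**Figure D3:**
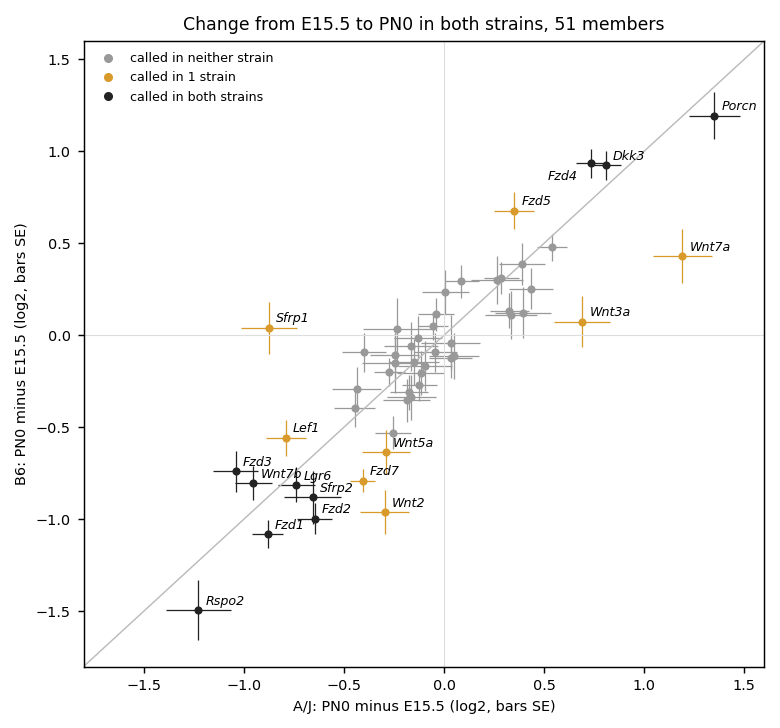
Each point is one of the 51 genes, with its log2 change from E15.5 to PN0 in A/J on the x axis and in B6 on the y axis, bars giving standard errors and the grey diagonal equal change; black points were called in both strains (10), orange in 1 (8) and grey in neither (33). Porcn at 1.35 and 1.19 and Rspo2 at -1.23 and -1.49 lie at the ends, and Sfrp1, Wnt7a, Wnt3a and Wnt2 lie farthest from the diagonal.

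In the last days before birth Wnt5a was the gene called in both strains. From E17.5 to E20.5 in A/J, Lef1, Lgr5, Rspo1 and Sfrp2 rose (7.84%, with 6.09% of all higher) and Fzd2, Lgr6 and Wnt5a fell (5.88%, with 5.29% of all lower). From E17.5 to E18.5 in B6, Wnt5a fell (1.96%, with 1.61% of all lower) and no gene was called higher (2.77% of all higher). By limma's adjusted p alone 8 genes were higher and 6 lower, and 18 had an unadjusted p below 0.05 in either direction. The B6 count of 1 called gene was 0 when array 2b of B6 E18.5 was left out or used as a replicate of its own. It was 3 without B6 E18.5 replicate 2, and 2 without B6 E17.5 replicate 2 or 3. Across birth, A/J gained Wnt7a (1.96%, with 2.08% of all higher) and lost Lgr5 (1.96%, with 1.95% of all lower) between E20.5 and PN0, which lie hours apart; the count of 2 was 1 without A/J E20.5 replicate 2 or without A/J PN0 replicate 2. Lgr5, a stem cell marker, read 5.96, 6.02 and 6.05 at E20.5 and 5.27, 5.31 and 5.46 at PN0, all below the median of the array (difference -0.66 ± 0.09, adjusted p = 2.65e-06). In B6 between E18.5 and PN0 Wnt2 fell (1.96%, with 3.36% of all lower) and none was called higher (3% of all higher). By limma's adjusted p alone 8 genes were higher and 7 lower, and 22 had an unadjusted p below 0.05 in either direction. The count of 1 called gene in B6 was 3 with array 2b left out or used as a replicate of its own. It was 3 without any one of the E18.5 replicates and 4 without B6 PN0 replicate 1. It was 2 without B6 PN0 replicate 3 and 2 with arrays centred on their medians.

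Few genes of the family passed both the adjusted p and the 1.5-fold limit between strains before birth. By the adjusted p alone, 1 gene was higher in B6 at E15.5, and 3 were higher and 2 lower at E16.5. At E17.5 it was 5 higher and 2 lower, and at E18.5 6 higher and 7 lower. At E15.5, E16.5 and E17.5 limma called 0 of 51 genes between B6 and A/J, with 0.863%, 1.18% and 1.75% of all probe sets called and 10, 19 and 18 genes at an unadjusted p below 0.05. The count at E17.5 was 4 without A/J replicate 3, and 1 without A/J replicate 1, without B6 replicate 3 or with arrays centred on their medians; at E16.5 it was 1 without A/J replicate 1, A/J replicate 2 or B6 replicate 1. At E18.5 Lgr4, a receptor for R-spondins, was lower in B6 (1.96%, with 4.05% of all called). Its A/J replicates read 7.05, 7.02 and 6.95 and its B6 replicates 6.25, 6.46 and 6.49, without overlap. The difference was -0.61 ± 0.13 (adjusted p = 0.00111). It was -0.52 with arrays centred on their medians and -0.53 without B6 E18.5 replicate 1, both under 1.5-fold, and the count at E18.5 was 2 without A/J replicate 2. Lgr4 also read lower in B6 at E16.5 and E17.5, without overlap but under 1.5-fold: A/J read 7.03, 6.91 and 7.29 at E16.5 and 6.91, 6.98 and 6.59 at E17.5, and B6 read 6.64, 6.59 and 6.47 at E16.5 and 6.32, 6.19 and 6.42 at E17.5. These differences were -0.51 ± 0.13 (adjusted p = 0.0178) and -0.52 ± 0.13 (adjusted p = 0.0121). At E15.5 the replicates overlapped, with 7.33, 7.42 and 6.77 in A/J and 7.22, 7.04 and 6.81 in B6. They overlapped again at PN0, with 6.92, 7.14 and 6.97 in A/J and 6.80, 6.98 and 7.11 in B6, so the gap was seen at the fetal times between them. A/J at E19.5 read 6.88, 6.81 and 6.59, and at E20.5 6.75, 6.83 and 6.96.

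At PN0 Wnt2, Wnt7a and Sfrp1 differed between strains (5.88%, with 4.08% of all called). Wnt2, the mesenchymal ligand, read 8.65, 9.01 and 9.05 in A/J and 7.82, 8.03 and 8.42 in B6. Before birth its A/J replicates read 9.19, 9.22 and 9.19 at E15.5, 9.19, 9.21 and 9.19 at E16.5, 9.21, 9.15 and 9.03 at E17.5, 9.27, 9.22 and 8.84 at E18.5, 8.87, 9.17 and 8.86 at E19.5, and 8.99, 8.98 and 9.09 at E20.5. Its B6 replicates read 9.03, 9.14 and 8.98 at E15.5, 9.08, 8.94 and 8.96 at E16.5, 8.90, 8.90 and 9.05 at E17.5, and 8.96, 8.85 and 9.14 at E18.5. Wnt2 was therefore nearly level in A/J throughout and dropped in B6 between E18.5 and PN0, by -0.89 ± 0.12 (adjusted p = 1.25e-06). B6 minus A/J at PN0 was -0.81 ± 0.12 for Wnt2 (adjusted p = 1.15e-05), -0.72 ± 0.15 for Wnt7a (adjusted p = 0.000542) and 1.02 ± 0.14 for Sfrp1 (adjusted p = 3.89e-06), with no overlap of replicates for any of them. These calls held under all 17 alternatives tried for each, which did not include other thresholds. At the stricter fold limit used for the counts of genes, Sfrp1 alone was large enough, and Wnt2 and Wnt7a fell below it. At PN0 the fibroblast marker list stood at 10.59 to 10.66 in A/J and 10.44 to 10.46 in B6, and the smooth muscle list at 9.21 to 9.50 and 8.77 to 9.0; their part in the Wnt2 difference was not tested. Embryonic age and strain cannot be told apart at PN0.

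The change from E15.5 to PN0 itself differed between strains for the same genes, 5.88% of the family with 3.09% of all probe sets called. B6 minus A/J was 0.91 ± 0.20 for Sfrp1 (adjusted p = 0.00449), -0.66 ± 0.17 for Wnt2 (adjusted p = 0.0163) and -0.76 ± 0.21 for Wnt7a (adjusted p = 0.0235). With the thresholds unchanged, these differences in change lost their calls under some alternatives, unlike the differences at PN0. Sfrp1 lost its call under 1, Wnt2 under 5 and Wnt7a under 7 of 23, with the signs kept. Without B6 PN0 replicate 1 the count was 1. Over all shared times the courses of Fzd7, Lgr6, Sfrp1, Wnt2, Wnt3a, Wnt7a and Wnt8a differed between strains, 7 of 51 (13.7%) with 16.2% of all called.

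On the day before birth, B6 at E18.5 against A/J at E19.5, Wnt5a was the gene called (1.96%, with 2.36% of all). It was 0.80 ± 0.12 higher in B6 (adjusted p = 2.66e-05), with B6 at 8.18, 8.73 and 8.37 and A/J at 7.53, 7.68 and 7.66. At the same embryonic day E18.5 the strains differed by -0.04 ± 0.12 (adjusted p = 0.81), and at PN0 by 0.08 ± 0.12 (adjusted p = 0.723).

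**Figure D4:**
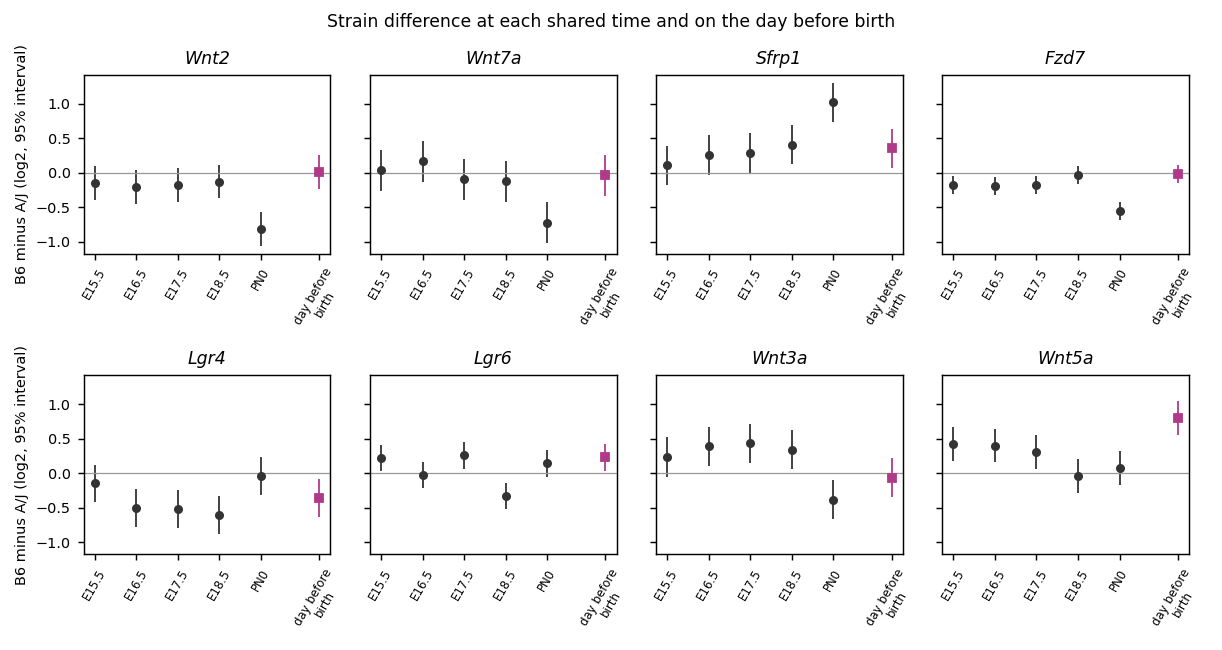
Each panel gives B6 minus A/J in log2 units for 1 gene at the 5 shared times (black circles) and for B6 E18.5 minus A/J E19.5 (purple squares), with 95% intervals from the limma fit; the grey line is no difference. Wnt2, Wnt7a and Sfrp1 stand farthest from 0 at PN0, Lgr4 is lowest at E18.5, and Wnt5a stands out on the day before birth.

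The rest of the pathway was read from 4 further lists, for PN0 against E15.5, where 13.7% of all probe sets were called higher and 11.8% lower in A/J, and 12.7% higher and 13.4% lower in B6. The counts on these short lists were 0 to 5 genes in each direction and are given as descriptions. Of 25 intracellular components, including beta-catenin and Apc, 1 was higher and 2 lower in A/J, while B6 had 2 higher and 1 lower. The list's median change was 0.01 and 0.10, beside -0.04 and 0.00 over all probe sets. By limma's adjusted p alone, 13 of the 25 passed in A/J and 16 in B6. Beta-catenin was one of them, under 1.5-fold, with -0.34 ± 0.06 in A/J (adjusted p = 1.49e-05) and -0.42 ± 0.06 in B6 (adjusted p = 3.52e-07). Bcl9l, a co-activator of beta-catenin, gained 0.62 ± 0.06 in A/J and 0.61 ± 0.06 in B6, and Dvl2, which relays the Frizzled signal, changed by -0.67 ± 0.07 and -0.85 ± 0.07. Of 23 other surface and secreted genes, A/J had 2 higher and 5 lower while B6 had 3 higher and 4 lower, with medians of -0.11 and -0.10. The inhibitor Apcdd1 rose by 1.23 ± 0.10 in each strain. Ndp, which encodes the Fzd4 ligand Norrin, changed by -1.25 ± 0.11 in A/J and -0.92 ± 0.11 in B6, so that receptor and ligand moved in opposite directions. Rnf43, a ligase that removes Frizzled from the surface, changed by -1.15 ± 0.09 and -0.97 ± 0.09. The Wnt5a receptors Ror1 and Ror2, named after their values were seen, were also lower in both strains.

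Of 15 planar polarity genes, A/J had 2 higher and 2 lower, near the shares of all probe sets, with a list median of -0.28 beside -0.04 over all. In B6 none reached 1.5-fold and was called, although 7 had an adjusted and 8 an unadjusted p below 0.05 in limma's test. The median was -0.11. Of 16 genes known as targets of canonical signalling in other tissues, A/J had 3 higher and 4 lower while B6 had 4 higher and 5 lower, with medians of -0.40 and -0.24. Mycn changed by -2.13 ± 0.14 in A/J (adjusted p = 2.59e-14) and -2.29 ± 0.14 in B6 (adjusted p = 5.5e-15), and Myc by -1.37 ± 0.15 and -1.55 ± 0.15; both are also growth genes that go with dividing cells. Tnfrsf19 changed by -1.32 ± 0.09 and -1.42 ± 0.09. Nkd1, a feedback inhibitor named after its values were seen, went the other way with 1.1 ± 0.10 in A/J and 1.46 ± 0.10 in B6, as did Apcdd1, which is also on this list.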

How the data were processed

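The authors deposited log2 values made by RMA in Affymetrix Expression Console 1.1 from 37 arrays; the genome build is not given in the sources used here. Probe sets with exactly 1 gene symbol (21789 of 35556, for 19938 genes) were tested; 1621 had several symbols and 12146 none. Samples were grouped by their titles into 12 groups of 3. Array 2b of B6 E18.5 was averaged with array 2 as 1 replicate, although the labels do not say whether it repeats that sample. The 2 correlated at r = 0.9883, as did arrays 1 and 3 of that group, so the value does not settle it. A model of group means was fitted with limma 3.58.1 in R 4.3.3 (24 residual degrees of freedom), with Benjamini-Hochberg adjustment over all 21789 probe sets. Arrays carry no counts, so 3 litters per group limit the precision.

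Replicates are shown one by one for genes called over time in both strains or between strains at one time; other genes are given by ranges. Of each further list, up to 3 genes called in both strains with the largest mean change are named; Ror1, Ror2 and Nkd1 were named outside this rule, after their values were seen. The genes and lists were chosen with earlier results of these data known, and E16.5 against E15.5 was added after seeing the data. Equal replicate numbers did not pair samples: deviations from group means correlated above 0.1 in 30 of 198 pairs (median r = -0.015). Alternatives were median centring, all probe sets, mean of a gene's probe sets, no dim probe sets, a trended robust prior, fits of the compared groups alone, other thresholds, other uses of array 2b, a replicate block and leaving out replicates. Promoter letters are from RefSeq tables.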

Additional observations from a re-analysis of the deposited data

Results flagged for a closer look

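Results are listed here because a test of the difference between strains passed for them. The log2 change from E15.5 to PN0 differed between B6 and A/J by 0.913 for Sfrp1, by -0.663 for Wnt2 and by -0.76 for Wnt7a. Over the 5 shared times the test of strain by time gave an adjusted p of 0.00205 for Fzd7, 0.0106 for Lgr6, 0.0113 for Sfrp1, 0.0158 for Wnt2, 0.0165 for Wnt3a, 0.0203 for Wnt7a and 0.02 for Wnt8a. At PN0 Fzd7 was lower in B6, with a difference of -0.56 (adjusted p = 2.05e-07) that is just under 1.5-fold. Lgr6 at E18.5 was -0.33 (adjusted p = 0.00869) and Wnt3a at PN0 -0.38 (adjusted p = 0.0501) in B6 minus A/J. Wnt8a, whose group means all lay below the median of the array, was 0.47 higher in B6 at E17.5 (adjusted p = 0.00429). Embryonic age and strain cannot be told apart in the PN0 differences. Single replicates were left out in turn for the differences in change to PN0. Sfrp1 then kept its call. Wnt2 lost its call without A/J PN0 replicate 3 or B6 PN0 replicate 1. Wnt7a lost its call without A/J E15.5 replicate 1, A/J PN0 replicate 1 or 2, B6 E15.5 replicate 1 or B6 PN0 replicate 1. For the test over shared times, single genes were not followed in this way.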

How the results depend on the processing

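Counts below are genes of the 51, and no share of all probe sets is given under these alternatives. With the adjusted p alone, 29 changed over time in A/J and 29 in B6; PN0 against E15.5 gave 30 in A/J and 28 in B6, E17.5 against E15.5 20 and 23, E16.5 against E15.5 6 and 10, E20.5 against E17.5 in A/J 18, E18.5 against E17.5 in B6 14, and PN0 against the last fetal time 8 and 15. By the same rule the strains differed in 1, 5, 7, 13 and 13 genes at the 5 shared times in order of age, and in 2 on the day before birth. At 2-fold, PN0 against E15.5 gave 4 and 3, E17.5 against E15.5 4 and 2, E20.5 against E17.5 in A/J 1, strain at PN0 1, and 0 for E16.5 in either strain, E18.5 against E17.5 in B6, PN0 against the last fetal time in either strain, strain at E18.5, the day before birth and the strain difference in the change to PN0. Median centring gave 2 for E18.5 against E17.5 in B6, 2 for PN0 against E18.5 in B6, and 1 and 0 between strains at E17.5 and E18.5. With array 2b left out or as a separate replicate, E18.5 against E17.5 in B6 gave 0 and PN0 against E18.5 gave 3. Without dim probe sets PN0 against E20.5 in A/J gave 1, and with only the compared groups fitted the strain difference in the change to PN0 gave 1. Added after seeing the data, leaving out 5 replicates with liver or heart signal gave 2 for E18.5 against E17.5 in B6, 1 between strains at E16.5 and 1 for the change to PN0. Leaving out 5 with esophagus signal gave 2, 1 for PN0 against E20.5 in A/J, 1 between strains at E17.5 and 1 for the change to PN0.

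Leaving out single replicates gave 2 to 4 for E16.5 in B6 (lowest without B6 E15.5 replicate 1), 1 to 3 for E18.5 against E17.5 in B6 (highest without B6 E18.5 replicate 2, and 2 without B6 E17.5 replicate 2 or 3), 1 to 2 for PN0 against E20.5 in A/J (1 without A/J E20.5 replicate 2 or PN0 replicate 2), and 1 to 4 for PN0 against E18.5 in B6 (4 without B6 PN0 replicate 1, 2 without PN0 replicate 3, and 3 without any of the E18.5 replicates). Between strains it gave 0 to 1 at E16.5 (1 without A/J replicate 1 or 2 or B6 replicate 1), 0 to 4 at E17.5 (4 without A/J replicate 3, 1 without A/J replicate 1 or B6 replicate 3), 0 to 2 at E18.5 (2 without A/J replicate 2, 0 without B6 replicate 1), and 1 to 4 for the change to PN0 (1 without B6 PN0 replicate 1). The cause of these moves was not tested.

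With a replicate block every count stayed as reported, for example 9 and 6 over time and 14 and 14 for PN0 against E15.5, and it changed no call of a single gene. Calls of single genes were followed for PN0 against E15.5, between strains and for the strain difference in change, 36 in all. Other thresholds were not applied to them. Under every other alternative 30 held and none reversed. The rest were Sfrp2 and Wnt3a in A/J, Lgr4 at E18.5 and the strain differences in change of Sfrp1, Wnt2 and Wnt7a. Arrays give no depth, and dim probe sets carry less signal over background.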
